A study of Mus musculus with 9 samples.

Results

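The 38 genes described here encode chaperones and proteins of the unfolded protein response (UPR). They were chosen by gene symbol for their known functions. The choice rule used no measured value, but it was made with earlier results of these data known. All 38 were found among the 23337 symbols of the count table. They were divided by role into 16 chaperones and folding enzymes of the endoplasmic reticulum (ER), 5 proteins of ER-associated degradation and translocation, 3 UPR sensors and transcription factors, 11 cytosolic heat shock proteins with their regulators, and 3 mitochondrial chaperones. Expression was measured by RNA sequencing of mouse embryonic fibroblasts (MEFs) of C57BL/6 x 129 background. All 9 libraries came from immortalised cells in which Cebpb, the gene of the transcription factor C/EBPβ, was knocked out. Cells were stably transfected with an empty vector (EV), with rat C/EBPβ-LAP, the long isoform that carries the activation domains, or with rat C/EBPβ-LIP, the short isoform that lacks them, and were kept under Zeocin selection. Each group had 3 libraries. The sources used here do not say whether these came from separate cultures or clones, so p-values measure the spread between these libraries, which may be technical.

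Proteins that enter the ER are folded by BiP, Grp94, the lectin chaperones and the protein disulfide isomerases, and misfolded ones are moved back to the cytosol for degradation. When unfolded proteins accumulate in the ER, the sensors IRE1, PERK and ATF6 start the UPR, in which the factors XBP1, ATF6 and ATF4 raise the transcription of chaperone and degradation genes. Unfolded proteins in the cytosol release the factor HSF1, which activates genes of the HSP70, HSP90 and small heat shock protein families. Fibroblasts secrete collagen and other matrix proteins and therefore carry a heavy folding load in the ER.

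Each library held between 24839139 and 33522082 counts on genes, and 3 counts stood for 0.0895 to 0.121 CPM, the counts scaled to a common library size. CPM below are scaled by the trimmed mean of M-values (TMM) over all 9 libraries. The mouse Cebpb row held 25.2 to 33.3 CPM in the 9 libraries, knockout EV cells included. As the constructs are of rat and the deleted part of the gene was not given, this row checked neither the knockout nor the constructs. The fibroblast markers were all detected, and 10 of 10 had counts. Their summed level was 35600 to 40100 CPM in EV, 29700 to 43600 in LAP and 17100 to 30500 in LIP. Leukocyte markers summed to 0.037 to 0.431 CPM, with Ptprc and Itgam listed at 0. Endothelial markers summed to 1.44 to 3.11 CPM with Pecam1 at 0, and hepatocyte and adipocyte markers to 0.0408 to 0.586 CPM with Plin1 at 0. The list of epithelial markers summed to 485 to 1000 CPM, most of it from Krt8 and Krt14. In such bulk samples, fewer cells of a type and less RNA per cell cannot be told apart.

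Libraries with the replicate number 2 stood apart in LAP and LIP. In LIP replicate 2, 29 of the 38 members had their lowest value of the 9 libraries, and all 16 ER chaperones did. Of all genes averaging 20 or more counts, 22.8% had their lowest value there, 18.4% in LIP replicate 3 and 17.7% in LAP replicate 2. The ER chaperones together made up 15000, 15400 and 12500 CPM in EV replicates 1 to 3, 17600, 13200 and 13600 CPM in LAP, and 13600, 6300 and 12200 CPM in LIP. Their median log2 difference from the EV mean was -0.09 in LIP replicate 1, -1.15 in replicate 2 and -0.23 in replicate 3. A second difference followed transcript length. Genes whose longest transcript has under 700 bases had a median log2 difference from the EV mean of 0.90 in LAP replicate 2 and 0.60 in LIP replicate 2, against -0.03 to 0.06 in the other 7 libraries. Main results below are therefore given with and without these libraries. What set them apart was not tested.

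**Figure D1:**
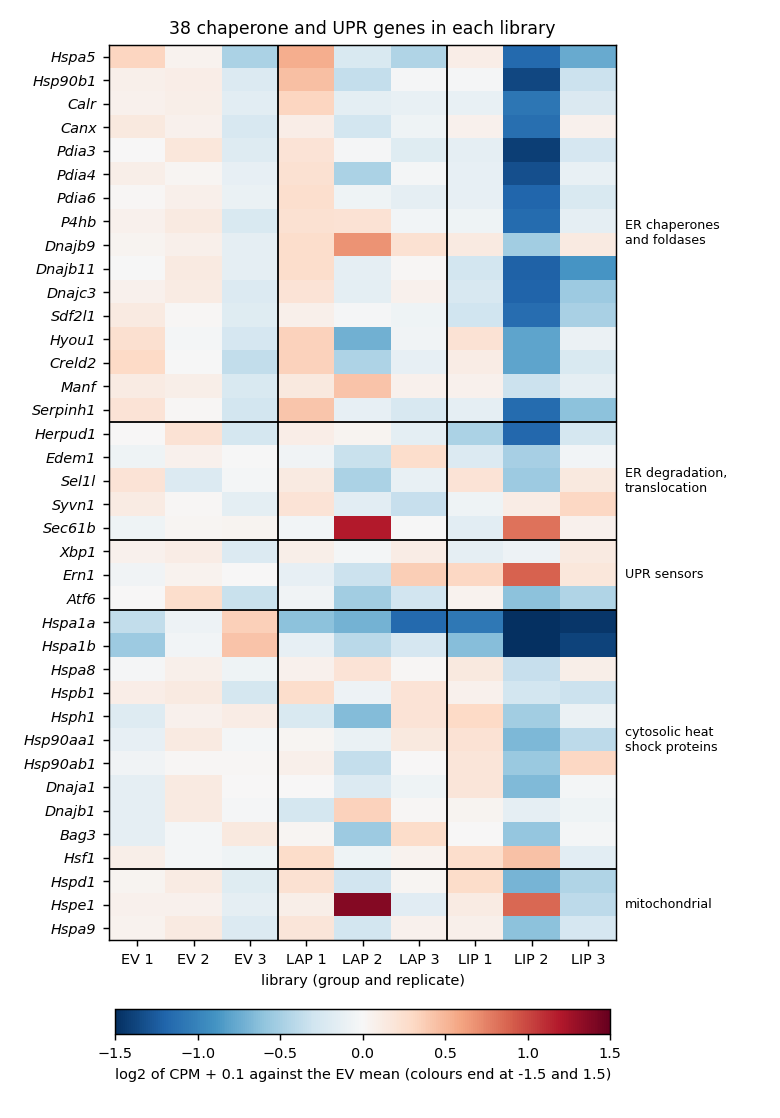
Each row is a member and each column a library, and the colour gives the log2 of CPM + 0.1 against the mean of the EV libraries. The column of LIP replicate 2 is blue for all 16 ER chaperones, while Sec61b and Hspe1 are red in replicate 2 of LAP and LIP.

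The levels of the members differed over several orders of magnitude. Per kilobase of the longest annotated transcript, Hspa8, the constitutive cytosolic HSP70, stood at 2410 ± 130 CPM per kb in EV (SD, n = 3). Hsp90ab1, the constitutive HSP90, followed at 2170 ± 62.6, the lectin chaperone Calr at 1400 ± 130 and the ER HSP90 Hsp90b1 at 1170 ± 129 CPM per kb. The protein disulfide isomerases P4hb, at 861 ± 114, and Pdia3, at 844 ± 104 CPM per kb, differed by less than their SD. With the shortest annotated transcript as length, P4hb came first at 3200 CPM per kb. At the other end of the order stood the stress-inducible Hspa1a at 0.239 ± 0.0701 CPM per kb and Sel1l, an adaptor of the degradation ligase, at 0.87 ± 0.124. The median of the 38 members in EV was 69.0 CPM per kb.

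Some of these levels depend on how reads were counted. The ER chaperones Hspa5 (BiP) and Canx stood at 58.7 and 13.6 CPM in EV, below Pdia4 and Hyou1, although both proteins are known as abundant. The 23 members with 1 curated RefSeq mRNA had a median of 121 CPM per kb and the 15 with 2 or more had 35.3. Over all genes averaging 20 or more counts these medians were 12.7 and 5.43 CPM per kb. In 10 members, over 10% of all 50-base stretches of the transcripts also occurred in transcripts of other genes, with 74.8% in Hspa8, 66.3% in Hspa1a, 62.3% in Hspa1b and 58.5% in Hsp90aa1. Counts of these genes are uncertain wherever reads with several alignments were dropped or split, which the sources used here do not give. Strand use was not given either, and exons of another gene on the opposite strand overlapped 14.7% of Hsp90b1, 19.0% of Hspa1a and 10.5% of Dnaja1. The part of these features in the levels was not tested.

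The first comparison, LIP against EV, asked what the short isoform changes in cells without C/EBPβ of their own. All 16 ER chaperones and folding enzymes had lower fitted levels with LIP, the log2 fold changes lying between -0.74 and -0.05 around a median of -0.43. Without a block for the replicate number, no member passed an adjusted p of 0.05 in edgeR's quasi-likelihood test, as against 0.396% of the 18203 genes tested (72 genes). DESeq2 also called none, and the edgeR exact test called Hspa1a (adjusted p = 0.0255). With the block, Dnajb11 passed (log2 fold change -0.79, adjusted p = 0.0428), as did 2.57% of all genes. Deviations of LIP and EV libraries with the same number correlated at 0.311 for replicate 1 and 0.243 for replicate 3, but at -0.119 for replicate 2. At an unadjusted p under 0.05, 7 members were lower, which 6.75% of all genes were, and Ern1 was higher, which 4.23% were. Of the 11534 genes averaging 20 or more counts, 8.78% were lower. The 7 lower members were Dnajb11, Dnajc3, Sdf2l1 and Serpinh1 among the ER chaperones, Herpud1 of the degradation group, and the inducible Hspa1a and Hspa1b. In all, 32 of the 38 members had a fold change below 0 with a median of -0.23, where 46.0% of all genes were below 0 and their median was 0.04. Without LIP replicate 2, 26 of 38 members and 13 of 16 ER chaperones were below 0, with medians of -0.07 and -0.17. Of the 17955 genes tested in that fit, 9000 were below 0. There 6 members were lower at an unadjusted p under 0.05, as were 5.7% of genes. Without all replicate 2 libraries, 21 members were below 0, with a median of -0.03, where 8811 of 17798 genes were below 0. In that fit 2 members were lower at an unadjusted p under 0.05, as were 4.16% of genes.

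Dnajb11 (ERdj3), a DnaJ co-chaperone that brings unfolded proteins to BiP, had the smallest adjusted p of the ER chaperones. The gene lies on the plus strand at chr16:22857845-22879634 (GRCm38). It measured 75.7, 83.5 and 69.8 CPM in EV replicates 1 to 3 and 62.8, 32.9 and 41.4 CPM in LIP. All LIP values lay below all EV values. Its log2 fold change was -0.74 ± 0.214 (SE) with an adjusted p = 0.189 in edgeR, and the exact permutation test gave p = 0.1, the smallest that 3 against 3 libraries allow. Without LIP replicate 2 the log2 fold change was -0.55, and without LIP replicate 1 it was -1.03 with an adjusted p = 0.0251.

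Dnajc3 (p58IPK), another BiP co-chaperone and an inhibitor of the kinase PERK, measured 246, 256 and 204 CPM in EV and 200, 102 and 162 CPM in LIP. The groups did not overlap, by a narrow margin between EV replicate 3 and LIP replicate 1. The fitted log2 fold change was -0.61 ± 0.222 (SE, adjusted p = 0.324 in edgeR) and -0.39 without LIP replicate 2. Sdf2l1, which works with Dnajb11 in a complex around BiP, measured 84.6, 78.2 and 68.2 CPM in EV and 62.6, 35.0 and 54.7 CPM in LIP, again without overlap. Its log2 fold change was -0.60 ± 0.204 (SE, adjusted p = 0.283 in edgeR) and -0.40 without LIP replicate 2.

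Serpinh1 (HSP47) is the chaperone of procollagen. It measured 103, 90.4 and 73.8 CPM in EV and 81.3, 40.0 and 57.8 CPM in LIP, and LIP replicate 1 lay within the EV range. The log2 fold change was -0.57 ± 0.23 (SE, adjusted p = 0.38 in edgeR), and -0.36 with an unadjusted p of 0.0872 when LIP replicate 2 was left out. The fibroblast markers moved in the same direction, with 6 of 10 lower at an unadjusted p under 0.05, a median log2 fold change of -0.78 and 0 past the adjusted threshold in edgeR. Their part in the result of Serpinh1 was not tested.

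The other ER chaperones also had their lowest values in LIP replicate 2. Hsp90b1 (Grp94), the ER chaperone with the highest CPM, measured 3490, 3520 and 2870 CPM in EV and 3240, 1270 and 2640 CPM in LIP. Its LIP replicate 1 lay inside the EV range, and the log2 fold change of -0.47 ± 0.3 (SE, adjusted p = 0.642 in edgeR) became -0.17 without LIP replicate 2. Calr, Pdia3, Pdia4, Pdia6, P4hb and Hspa5 had fitted log2 fold changes from -0.51 for Hspa5 to -0.38 for P4hb. These 6 lay, without LIP replicate 2, between -0.27 for Hspa5 and -0.11 for P4hb. Dnajb9, Manf, Hyou1, Canx and Creld2, the other members of the group, lay between -0.26 for Creld2 and -0.05 for Dnajb9, and without LIP replicate 2 between -0.05 for Creld2 and 0.13 for Dnajb9. In 12 of the 16 the 95% interval of the log2 fold change included 0.

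**Figure D2:**
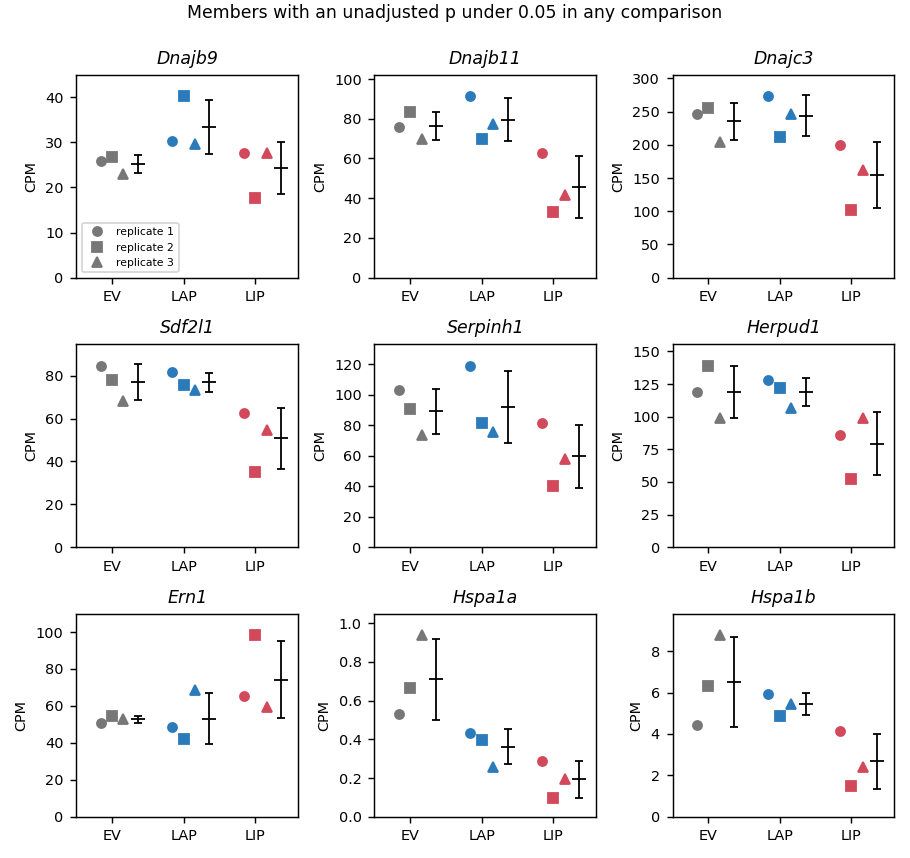
Points show CPM in each library for the 9 members with an unadjusted p under 0.05 in any comparison, with a shape for each replicate number, and black bars show the mean and SD of the 3 libraries. In LIP, replicate 2 is the lowest of the 3 for 8 of these genes and the highest for Ern1.

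The promoters of the members were searched for known elements, as a description only. Promoter windows of 250 bases before to 50 bases after the start were found for 30 of the 38 members in RefSeq (GRCm38.p6). The ER stress element, to which ATF6 and XBP1 bind with the factor NF-Y, was searched on both strands as CCAAT, 9 bases of any kind, and CCACG. It occurred in 8 of the 30 members (26.7%) and in 37 of 27025 genes (0.137%). As the members were chosen as known chaperone and UPR genes, this difference in share is no test. Those 8 were Hspa5, Hsp90b1, Calr, Canx, Pdia6, Dnajc3, Creld2 and Syvn1, of which Syvn1 is a degradation ligase and the others are ER chaperones. The stretches upstream of the start are given below from 5′ to 3′ on the strand of the gene, with the element in capitals. An element that begins with CGTGG is read on the other strand. For Hspa5 (promoter window chr2:34771840-34772139, plus strand) the element alone is shown, which lies from -65 to -47 relative to the start.
Hspa5: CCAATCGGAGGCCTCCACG
Hsp90b1 (chr10:86705523-86705666, minus strand): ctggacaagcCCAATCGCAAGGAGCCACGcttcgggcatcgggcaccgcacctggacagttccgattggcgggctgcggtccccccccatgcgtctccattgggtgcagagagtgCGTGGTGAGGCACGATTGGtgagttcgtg
Calr (chr8:84847065-84847103, minus strand): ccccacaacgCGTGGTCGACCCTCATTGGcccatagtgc
Canx (chr11:50325790-50325828, minus strand): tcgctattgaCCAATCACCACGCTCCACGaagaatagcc
Pdia6 (chr12:17266481-17266519, plus strand): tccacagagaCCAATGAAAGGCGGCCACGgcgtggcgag
Dnajc3 (chr14:118937817-118937855, plus strand): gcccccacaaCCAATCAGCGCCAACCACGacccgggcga
Creld2 (chr15:88819510-88819548, plus strand): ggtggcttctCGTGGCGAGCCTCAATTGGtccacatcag
Syvn1 (chr19:6046522-6046560, plus strand): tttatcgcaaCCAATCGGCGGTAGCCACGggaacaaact

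Hsp90b1 carried the element in both orientations, and the other 7 genes once. Of the 8 genes, 7 had a log2 fold change below 0 in LIP against EV, from -0.61 for Dnajc3 to -0.24 for Canx, and Syvn1 stood at 0.13. Of the 8, 6 were below 0 without LIP replicate 2, with Dnajc3 at -0.39, Creld2 at -0.05 and Canx at 0.06. ER chaperones without a match in this window stood at both ends of the group, with Dnajb11 at -0.74 and Dnajb9 at -0.05. The part of the element in these values was not tested. The short form CCACG, which is part of the element, was found in 24 of 30 members (80.0%) and in 35.5% of all genes. The UPR element TGACGTGG, which holds the short form on the other strand, was in 0 of 30 members and 0.714% of genes. The heat shock element, searched as GAA, TTC and GAA or as TTC, GAA and TTC with 2 bases between the triplets, was in 3 of 30 members (Hsph1, Hspd1 and Hspe1) and in 0.662% of genes. Hspd1 and Hspe1 lie head to head, and their matches are 1 and the same stretch of a shared promoter. Of the C/EBP sites, the palindrome TTGCGCAA was in Canx alone among the members (3.33%) and in 0.207% of genes, and the C/EBP-ATF element TGATGCAAT in 0 of 30 members and 0.222% of genes. Such matches are a description of the letters and show neither binding nor use.

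In the degradation and translocation group, Herpud1 was the member with the largest difference. Herpud1 is a UPR-induced membrane protein of the degradation complex. It measured 119, 139 and 99.4 CPM in EV and 86.0, 52.4 and 99.2 CPM in LIP, so that LIP replicate 3 and EV replicate 3 were nearly level without overlapping. The difference on the log2 scale was -0.59 ± 0.222 (SE, adjusted p = 0.344 in edgeR) and -0.37 without LIP replicate 2. Edem1, a lectin that extracts misfolded glycoproteins, had the highest CPM of the group. It measured 158, 174 and 164 CPM in EV and 144, 117 and 161 CPM in LIP, with overlap and a log2 fold change of -0.23 ± 0.162 (SE, adjusted p = 0.669 in edgeR), which became -0.12 without LIP replicate 2. Sel1l and Syvn1, which form the core ligase, stood at -0.02 and 0.13, and at 0.18 and 0.13 without LIP replicate 2.

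Sec61b, a subunit of the translocation channel with a longest transcript of 564 bases, was high in replicate 2 of LAP and of LIP. It measured 99.5, 106 and 107 CPM in EV, 101, 237 and 104 CPM in LAP, and 93.4, 184 and 109 CPM in LIP. The mitochondrial co-chaperonin Hspe1, with 774 bases, gave the same order, with 331, 334 and 288 CPM in EV, 338, 826 and 283 CPM in LAP and 346, 577 and 242 CPM in LIP. With offsets for transcript length, the log2 fold change of Hspe1 in LAP against EV went from 0.58 to 0.23 and that of Sec61b from 0.48 to 0.08.

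**Figure D3:**
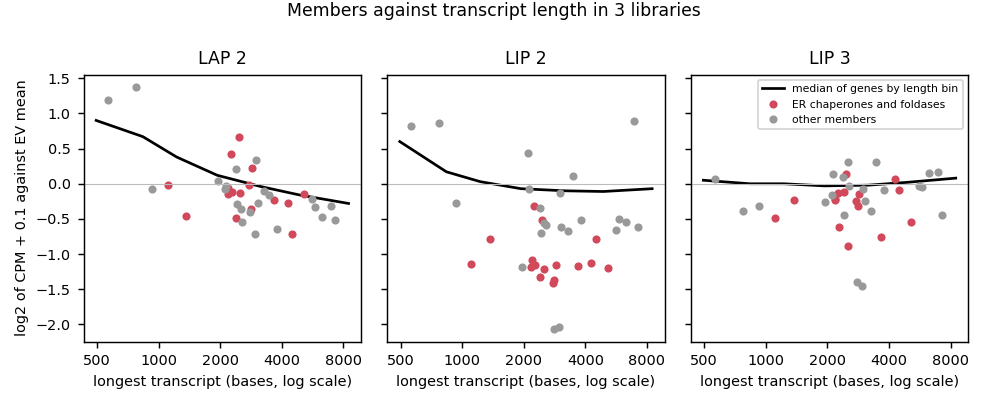
Each point is a member, placed by the length of its longest transcript in bases on a log axis and by the log2 of its CPM + 0.1 against the EV mean in LAP replicate 2, LIP replicate 2 and LIP replicate 3, and the line joins the medians of genes averaging 20 or more counts in 7 length bins. The line falls from 0.90 to -0.28 in LAP replicate 2 and starts at 0.60 in LIP replicate 2, where the ER chaperones lie below the line at all lengths, while it stays between -0.03 and 0.08 in LIP replicate 3.

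Among the UPR sensors and factors, Ern1 was the member that was higher with LIP. Ern1 encodes IRE1α, the kinase and endonuclease that splices Xbp1 mRNA. It measured 51.0, 54.6 and 52.7 CPM in EV and 65.3, 98.2 and 59.3 CPM in LIP. All LIP values lay above all EV values, which 6.8% of genes showed, and the value of replicate 2 was the highest. Its log2 fold change was 0.49 ± 0.19 (SE, adjusted p = 0.357 in edgeR), and 0.23 with an unadjusted p of 0.119 when LIP replicate 2 was left out. Xbp1, the target of IRE1α and the factor with the highest CPM of this group, measured 156, 160 and 128 CPM in EV and 135, 140 and 163 CPM in LIP. Its log2 fold change was -0.02, with a 95% interval from -0.36 to 0.32. Counts per gene do not separate spliced from unspliced Xbp1. Atf6 stood at -0.31, with an interval from -0.75 to 0.13, and at -0.18 without LIP replicate 2.

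The inducible HSP70 genes Hspa1a and Hspa1b had the largest log2 fold changes of all members. They lie side by side on the minus strand, at chr17:34969190-34972156 and chr17:34956436-34959238 (GRCm38). Hspa1b measured 4.42, 6.31 and 8.76 CPM in EV and 4.12, 1.47 and 2.42 CPM in LIP, without overlap. The fitted log2 fold change was -1.29 ± 0.369 (SE, adjusted p = 0.186 in edgeR), and without LIP replicate 2 the unadjusted p was 0.0137. Hspa1a rested on few reads, with counts of 17, 18 and 32 for EV against 7, 3 and 6 for LIP, or 0.529, 0.664 and 0.937 CPM against 0.286, 0.0983 and 0.194 CPM. The LIP replicate 2 value equals 3 counts. The log2 fold change was -1.89 ± 0.499 (SE, adjusted p = 0.14 in edgeR), the smallest adjusted p of the members, and -1.58 without LIP replicate 2. Because both genes share most of their sequence, their reads are not independent measurements.

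The other cytosolic heat shock proteins had log2 fold changes from -0.23 for Hsp90aa1 to 0.20 for Hsf1, which became -0.05 and 0.06 without LIP replicate 2. Hspa8 measured 5710, 6110 and 5500 CPM in EV and 6430, 4540 and 6130 CPM in LIP, a log2 fold change of -0.02 with a 95% interval from -0.52 to 0.48, and 0.12 without LIP replicate 2. The LIP values lay on both sides of the EV values. Hsp90ab1 stood at 0.02, the HSF1-induced Dnajb1 at -0.05 and Hsph1 at -0.06 (0.24, -0.02 and 0.11 without LIP replicate 2), and the 11 members of the group had a median of -0.13. Of the mitochondrial chaperones, the chaperonin Hspd1 (HSP60) measured 1380, 1460 and 1180 CPM in EV and 1620, 823 and 980 CPM in LIP. Its values overlapped, with a log2 fold change of -0.23 ± 0.25 (SE, adjusted p = 0.722 in edgeR), and the mitochondrial HSP70 Hspa9 had the same log2 fold change. These values without LIP replicate 2 were -0.04 for Hspd1 and -0.08 for Hspa9. Over all 38 members, CPM did not overlap between LIP and EV in 7 lower members, where 8.83% of genes were lower without overlap, and in Ern1.

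The second comparison asked the same of the long isoform. LAP against EV used the same EV libraries, so that both comparisons share their controls. Of the 38 members, 19 had a log2 fold change below 0, as did 47.8% of the 18156 genes tested, and the median was 0.00. No member passed an adjusted p of 0.05 in edgeR or DESeq2, as against 0.0606% of all genes (11 genes). At an unadjusted p under 0.05, Hspa1a was lower and Dnajb9 higher, and 1.34% and 1.93% of all genes were. The 95% interval of the log2 fold change stayed within -1 and 1 for 35 of the 38 members and for all 16 ER chaperones, whose median was 0.02. Without LAP replicate 2 all 16 ER chaperones were above 0, with a median of 0.12.

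Hspa1a measured 0.432, 0.395 and 0.259 CPM in LAP, from 14, 11 and 7 counts, below the 3 EV values. The difference on the log2 scale was -0.97 ± 0.389 (SE, adjusted p = 0.918 in edgeR), and no member was lower without overlap besides it, where 3.61% of genes were. Hspa1b, at 5.95, 4.89 and 5.44 CPM in LAP, lay within the EV range. Dnajb9 (ERdj4), a BiP co-chaperone induced through XBP1, measured 25.9, 26.7 and 23.0 CPM in EV, 30.3, 40.2 and 29.6 CPM in LAP and 27.6, 17.6 and 27.7 CPM in LIP. LAP values stood above all EV values, as in 3.96% of genes, with replicate 2 the highest. Its log2 fold change was 0.39 ± 0.167 (SE, adjusted p = 0.918 in edgeR), and 0.25 without LAP replicate 2. Dnajb11, Dnajc3, Sdf2l1, Serpinh1 and Herpud1, which were lower with LIP at an unadjusted p under 0.05, stood between -0.01 and 0.05 with LAP, and their 95% intervals lay between -0.38 and 0.46.

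The third comparison set the isoforms against each other. In LIP against LAP, 32 of the 38 members were below 0, as were 47.4% of the 18166 genes tested, and the log2 fold changes had a median of -0.23. All 16 ER chaperones were below 0, with a median of -0.47. Without a block for the replicate number, no member passed an adjusted p of 0.05 in edgeR, DESeq2 or the edgeR exact test, as against 1.05% of genes (190 genes). At an unadjusted p under 0.05, 6 members were lower and 0 higher, where 5.98% of genes were lower and 3.3% higher. Of the 11505 genes averaging 20 or more counts, 7.55% were lower. The 6 lower members were Dnajb11, Dnajc3, Sdf2l1, Serpinh1, Herpud1 and Hspa1b. Values did not overlap for 7 members lower and 0 higher, where 6.9% of genes were lower and 5.91% higher without overlap. Without LIP replicate 2 the median of the members was -0.08 and 13 of 16 ER chaperones were below 0, as were 9464 of 17896 genes. In that fit 2 members, Dnajb11 and Hspa1b, were lower at an unadjusted p under 0.05, as were 5.14% of genes. Without LAP replicate 2 the median was -0.35, and 6 members were lower at that p, as were 4.67% of genes. Without all replicate 2 libraries, 29 members and 15 of 16 ER chaperones were below 0, as were 8632 of 17663 genes. The members then had a median of -0.18, and 4 were lower at that p, as were 4.0% of genes.

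Libraries with the same number deviated together in LAP and LIP, and a fit with the replicate number as a block changed the calls. With the block, 10 members fell past an adjusted p of 0.05, among 1183 genes in all (6.51%). They were the ER chaperones Dnajb11 (log2 fold change -0.83, adjusted p = 0.000371), Dnajc3 (-0.69, 0.00524), Serpinh1 (-0.63, 0.0114), Sdf2l1 (-0.62, 0.0152), Hsp90b1 (-0.58, 0.0294), Pdia3 (-0.58, 0.0427), P4hb (-0.57, 0.045) and Hspa5 (-0.54, 0.0468), besides Hspa1b (-1.10, 0.00194) and Herpud1 (-0.62, 0.0187). When the block was used without all replicate 2 libraries, Dnajb11 was past the threshold (-0.73, adjusted p = 0.0339) and the other 9 were not, where 2.21% of genes passed, and the ER chaperones had a median of -0.23 with 15 of 16 below 0. With the block and offsets for transcript length, 8 members passed, among 1070 genes in all. The fibroblast markers were also lower in LIP than in LAP, with a median log2 fold change of -0.80. At an unadjusted p under 0.05, 6 of the 10 were lower, and 2 were without LIP replicate 2. With the block, 7 of these markers passed the adjusted threshold. Their part in the members' result was not tested.

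Values in LAP give the side of the comparison not yet described. Dnajb11 measured 91.3, 69.8 and 77.6 CPM in LAP, all above the 3 LIP values. Dnajc3 measured 273, 212 and 247 CPM and Sdf2l1 81.5, 75.8 and 73.2 CPM, both without overlap with LIP. Serpinh1 measured 119, 81.6 and 75.3 CPM, and overlapped with LIP replicate 1. Herpud1 measured 128, 122 and 107 CPM and Hsp90b1 4500, 2560 and 3250 CPM, the latter with LAP replicate 2 below LIP replicates 1 and 3. Ern1, at 48.7, 42.2 and 68.4 CPM, overlapped with LIP (log2 fold change 0.50 ± 0.246, SE, adjusted p = 0.564 in edgeR), and the value was 0.24 without LIP replicate 2 and 0.08 without all replicate 2 libraries. Edem1 measured 159, 132 and 198 CPM, Xbp1 157, 145 and 160 CPM, Hspa8 6020, 6690 and 5850 CPM and Hspd1 1570, 1090 and 1360 CPM in LAP. Those 4 overlapped with LIP.

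**Figure D4:**
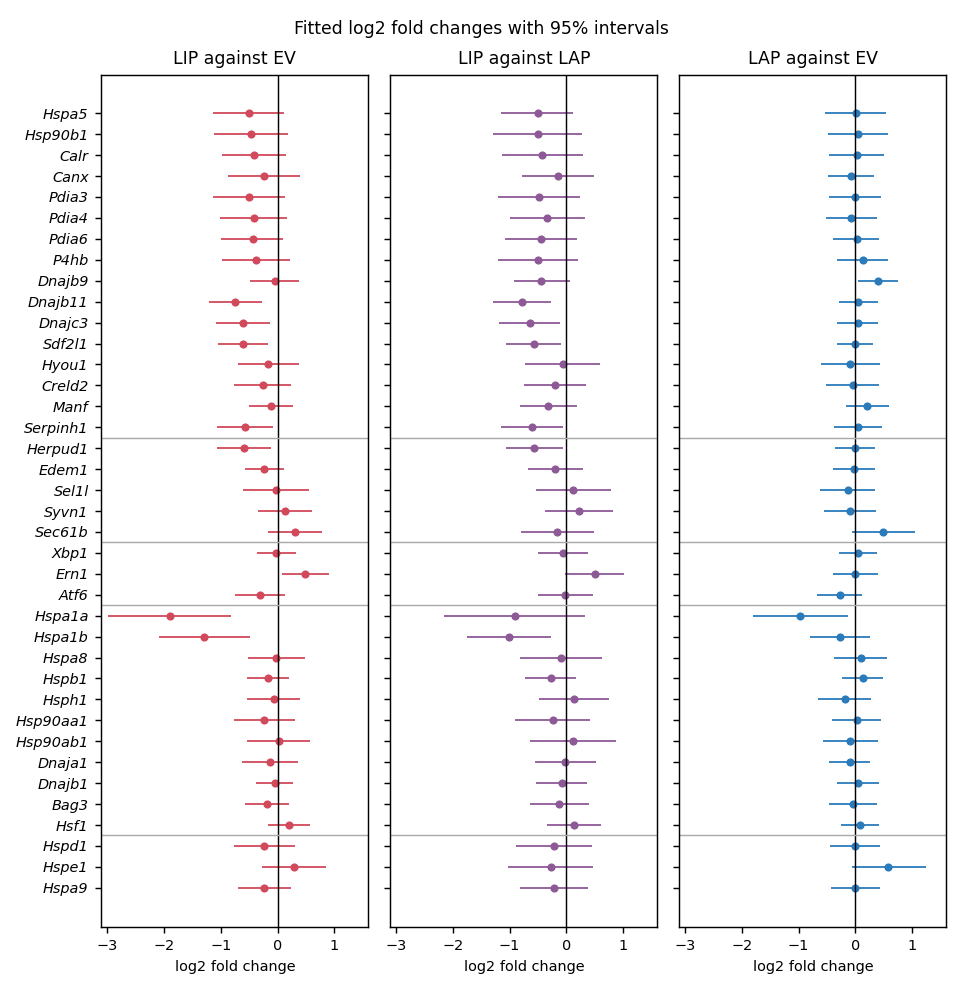
Points are the fitted log2 fold changes of the 38 members in the 3 comparisons and lines their 95% intervals, with grey lines between the groups of members. The 16 ER chaperones lie left of 0 in LIP against EV and in LIP against LAP, and their intervals include 0 for 12 of 16 in each, while in LAP against EV the points lie between -0.09 and 0.39.

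Of 162 further genes of the same pathways, 157 were tested in each comparison. In LIP against EV, 116 were below 0, the median being -0.16 on the log2 scale, and at an unadjusted p under 0.05 24 were lower and 1 higher. Over all genes, 46.0% were below 0, 6.75% lower and 4.23% higher. Of genes averaging 20 or more counts, 47.6% were below 0 and 8.78% lower. Of the 41 other ER folding genes tested, 40 were below 0, with a median of -0.42, and 14 were lower at an unadjusted p under 0.05. Among these Cnpy4, an ER protein of the saposin-like family, had the smallest p, with a log2 fold change of -0.83 ± 0.186 (SE, adjusted p = 0.0855 in edgeR). Without LIP replicate 2 the count of 24 was 13. Of the 35 other degradation and translocation genes, 27 were below 0, with Edem3 lowest in p at -0.54, and of the 14 mitochondrial genes 7 were below 0, with the disaggregase Clpb at -0.38. The 45 cytosolic chaperone genes tested had a median of -0.02, with 24 below 0.

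Past the adjusted threshold were Nupr1 and Hspa12a, both lower with LIP. Nupr1, a stress-induced nuclear protein counted with the PERK arm, measured 41.4, 40.3 and 44.6 CPM in EV, 45.8, 61.7 and 31.7 CPM in LAP and 25.7, 23.8 and 21.7 CPM in LIP. All LIP values lay below all values of the other groups, and the log2 fold change against EV was -0.83 ± 0.157 (SE, adjusted p = 0.0481 in edgeR). Hspa12a, an atypical member of the HSP70 family, measured 14.8, 13.0 and 12.2 CPM in EV, 15.3, 11.3 and 6.66 CPM in LAP and 4.20, 4.19 and 1.16 CPM in LIP. Its log2 fold change was -2.06 ± 0.38 (SE, adjusted p = 0.0401 in edgeR) against EV and -1.78 ± 0.409 (SE, adjusted p = 0.0414 in edgeR) against LAP. Without LIP replicate 2 the log2 fold changes against EV were -0.83 for Nupr1 and -2.33 for Hspa12a, with adjusted p of 0.0792 and 0.0779, past the threshold no longer. Against LAP, Hspa12a kept its call without LIP replicate 2 (adjusted p = 0.0475). The 10 genes of the PERK arm had a median of -0.19, and its effector Ddit3 (CHOP) measured 22.5, 21.9 and 25.3 CPM in EV and 17.3, 18.6 and 16.8 CPM in LIP, a log2 fold change of -0.40 ± 0.17 (SE, adjusted p = 0.41 in edgeR).

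In LAP against EV the further genes had 72 of 157 below 0, a median of 0.02, and at an unadjusted p under 0.05 0 lower and 4 higher, with 0 past the adjusted threshold in edgeR. The smallest p of their groups were those of the translocation subunit Sec61g (log2 fold change 0.94), the prolyl isomerase Fkbp11 (log2 fold change 0.58) and the prefoldin subunit Pfdn5 (log2 fold change 0.63). All 3 were highest in LAP replicate 2, and without it their log2 fold changes were 0.14, 0.20 and 0.06. In LIP against LAP, 130 of 157 were below 0 with a median of -0.20, and 21 had an unadjusted p under 0.05 as lower and 0 as higher. Hspa12a alone passed the adjusted threshold. With the replicate block 18 passed, where 6.51% of all genes did, and with the block but without all replicate 2 libraries 3 passed, namely Cnpy4, Hspa12a and Pdia5, where 2.21% did. Smallest in p among the ER folding genes was the disulfide isomerase Pdia5, at 146, 136 and 157 CPM in LAP and 100, 52.5 and 72.3 CPM in LIP, a log2 fold change of -0.95 ± 0.241 (SE, adjusted p = 0.0678 in edgeR). The translocon-associated Ssr2 led the degradation and translocation genes at -0.56. Of the further genes, Fkbp10, Ube2j2, Bag1 and Pfdn4 were listed at 0 counts in all 9 libraries, which need not mean that they were not expressed.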

How the data were processed

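Per the labels and the study's methods, RNA was prepared with TruSeq RNA v2 and sequenced as single-end reads of 50 bases. The authors extracted reads with bcl2fastq 1.8.3, aligned them with TopHat 1.4.1 to a genome given as GRCh38/mm10 and counted them per gene with HTSeq 0.5.4. The deposited values are raw counts per gene symbol.

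Each comparison used its 6 libraries and every gene with at least 1 count. Counts were scaled by TMM and tested with edgeR 4.0.16 (run in R 4.3.3) and its quasi-likelihood method, using Benjamini-Hochberg adjustment over all genes and a threshold of 0.05. For single members, exact permutation tests (two-sided) were added. Alternatives included DESeq2 1.42.0, other scalings and filters, a replicate block and leaving out libraries, and those on transcript length and on all replicate 2 libraries were added after seeing the data. Lengths and overlaps came from GENCODE on GRCm38. The test was tried on simulated counts.

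The members and lists were chosen with earlier results of these data known. Values per library are given for members past an adjusted or unadjusted p of 0.05, without overlap in 2 or more comparisons, or with the highest CPM of their group, and others by range. Further pathway genes are named when past the adjusted threshold or smallest in p in their group. Ddit3, Hspe1 and Sec61b were added after their values were seen. Same-numbered libraries were checked by the correlation of deviations from group means over 11535 genes. It was 0.577, 0.421 and 0.48 between LIP and LAP and 0.546, 0.223 and 0.517 between LAP and EV, so that the numbers pair these libraries, but 0.311, -0.119 and 0.243 between LIP and EV. The floor of 3 counts covers counting error only.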

Additional observations from a re-analysis of the deposited data

How the results depend on the processing

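Most values kept their side of the threshold. Of 806 refits of single named genes, 69 had the other sign, 44 of them in LAP against EV. All 69 belonged to genes with a log2 fold change of at most 0.27 in size, and none was past the threshold in either direction. Under adjusted p in LIP against EV, 1 member was lower by the edgeR exact test (Hspa1a) and 1 with the replicate block (Dnajb11), and leaving out a library gave 0 to 1. In LIP against LAP, 10 were lower with the replicate block, 8 with block and length offsets, and 1 with the block without all replicate 2 libraries. In LAP against EV the block changed no call of a member. With the block and without all replicate 2 libraries, 8 members were higher at an unadjusted p against 1, and 7 were below 0 against 19. Over all genes, 273 passed the adjusted threshold in that fit, against 11 in the main fit. Without those libraries and without the block, 0 members were higher at an unadjusted p, where 0.611% of genes were. In that fit 7 members were below 0, where 9023 of 17850 genes were. Between LIP and EV, libraries with the same number went together for replicates 1 and 3 only. LIP replicate 2 did not correlate best with its own number.

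At an unadjusted p, members lower in LIP against EV were 2 without all replicate 2 libraries, where 4.16% of genes were. When a library was left out the count was 4 to 14. It was 4 without EV replicate 2, where 4.62% of genes were lower, and 14 without LIP replicate 1. Calls over all genes also rose without LIP replicate 1, with 282 past the adjusted threshold against 72 in the main fit. In LAP against EV the count of 1 became 0 with DESeq2, with at least 10 counts in every library and without all replicate 2 libraries, and was 0 to 1 when a library was left out, with 0 without EV replicate 3 or LAP replicate 3. In LIP against LAP it was 14 with the block, where 9.45% of genes were lower, and 14 with block and length offsets. It was 2 to 7 when a library was left out, with 2 without LAP replicate 1 or LIP replicate 2. Without LIP replicate 2, 5.14% of genes were lower.

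Counts over all genes moved more. LIP against EV gave 36 genes with total counts, 321 with DESeq2, 301 with the exact test, 4 with filterByExpr, 0 with at least 10 counts, 467 with the block, 46 with length offsets, 317 with both, 1 without all replicate 2 libraries, 177 at an adjusted p under 0.1, and 22 to 367 when a library was left out. LAP against EV gave 26 with DESeq2, 33 with the exact test, 3 with filterByExpr, 0 with at least 10 counts, 3 with all 9 libraries, 54 with the block, 53 with block and offsets, 4 without replicate 2, 273 with the block without replicate 2, and 6 to 62 when a library was left out. LIP against LAP gave 113 with total counts, 2 with filterByExpr, 0 with at least 10 counts, 1183 with the block, 106 with offsets, 1070 with both, 3 without replicate 2, 390 with the block without replicate 2, 301 at an adjusted p under 0.1, and 7 to 448 when a library was left out. The causes were not tested. Both filters test fewer genes. With 3 libraries a group, the exact permutation test could not go below p = 0.1, and at 3 counts Hspa1a lies at the limit of the depth.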
